A study of Homo sapiens with 24 samples.

Results

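The 10 genes described here encode the core of the RNA interference pathway. They are the 4 Argonautes AGO1, AGO2, AGO3 and AGO4, the nuclease DICER1 with its partners TARBP2 and PRKRA, the nuclear nuclease DROSHA with its partner DGCR8, and the export receptor XPO5. They were chosen by name, as 10 of the 26475 genes in each count table, and all 10 had enough reads to be tested in every comparison. The libraries are poly(A)-selected RNA-seq from 786-M1A and OS-LM1, metastatic derivatives of the clear cell renal cell carcinoma lines 786-O and OS-RC2. Cells of each line, harvested before they were confluent, carried shPAX8-1, shPAX8-2 or sgNTC18, with 4 replicates of each, giving 24 libraries in all. The pair of shPAX8 constructs are hairpins against PAX8, a transcription factor of the renal lineage, and sgNTC18 is named as a non-targeting guide RNA for Cas9. Of the 24 libraries, 16 therefore came from cells with a designed hairpin and 8 from cells without one. Whether the guide RNA cells also expressed Cas9, and whether they were grown and prepared together with the hairpin cells, is not given in the sources used here. The groups differed in 2 ways at once, since every library with a hairpin was also depleted of PAX8 and no library with a control hairpin was analysed here. The hairpin, the loss of PAX8 and any difference in how the groups were grown or prepared therefore cannot be told apart in a comparison of shPAX8 with sgNTC18. Both constructs carried a hairpin, so the comparison of shPAX8-1 with shPAX8-2 stayed within the shRNA libraries.

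In the canonical pathway, DROSHA and DGCR8 cut a hairpin out of a primary transcript in the nucleus, XPO5 carries the hairpin to the cytoplasm, and DICER1 with TARBP2 or PRKRA trims it to a short duplex. An Argonaute then keeps one strand as a guide and pairs it with messenger RNAs. All 4 Argonautes can repress a target that matches the guide over its seed, and AGO2 is the one best known for cutting a fully matched target. An shRNA built into a microRNA backbone enters this pathway at the DROSHA step, so it draws on the same proteins as the microRNAs of the cell. The libraries measured messenger RNA only, and neither mature microRNAs, hairpin-derived guides nor proteins were measured.

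The hairpins are shown first because they are the molecules that these genes process. Each guide strand is written 5′ to 3′ with its seed, bases 2 to 8, in capitals, and each target with the complement of that seed in capitals.
shPAX8-1 guide: tGTGAGTCaatgcttagtcggc
shPAX8-1 target: gccgactaagcattGACTCACa
shPAX8-2 guide: tAGAGTTGtgttaataatggag
shPAX8-2 target: ctccattattaacaCAACTCTa
Each guide was 22 bases long and matched PAX8 in full at 1 site. The shPAX8-1 site lay in the coding part of exon 7 at chr2:113241690-113241711 of hg38, on the minus strand, and the shPAX8-2 site in the 3′ UTR in exon 12 at chr2:113218122-113218143, also on the minus strand. The pair of guides shared no seed.

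The targeted gene was lower in every shPAX8 library than in any sgNTC18 library. In 786-M1A cells PAX8 was between 291.6 and 393.2 CPM (counts scaled to one common normalized library size) with sgNTC18. It was between 14.8 and 22.9 CPM with shPAX8-1 and between 39.99 and 45.5 CPM with shPAX8-2. In OS-LM1 cells the corresponding ranges were 244.7 to 279.0, 59.8 to 89.2 and 63.8 to 97.0 CPM. PAX8 was 11.9-fold lower with shPAX8 in 786-M1A and 3.33-fold lower in OS-LM1 cells (adjusted p by edgeR = 5.6e-12 and 9.4e-12).

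Libraries held from 11634419 to 52059375 expected counts, and single members had between 80 and 5026 expected counts in a library. The median total was 32029482.5 with sgNTC18, 19231850 with shPAX8-1 and 17466044 with shPAX8-2, so the guide RNA libraries were deeper in the median over both lines, although the deepest single library was OS-LM1 shPAX8-2 replicate 3. The 786-M1A shPAX8-1 libraries fell into a pair of replicates 1 and 2 and a pair of replicates 3 and 4, which differed from each other more than within. A chi-square per gene was 15.5 and 3.92 within these pairs and 49.5 to 86.2 across them, so the changes against sgNTC18 in this line are also given without either pair. The largest value of all pairs of replicates was 98.4, in OS-LM1 shPAX8-2 between replicates 3 and 4, and replicates 2 and 3 of that group were at 65.7. Without OS-LM1 shPAX8-2 replicate 3, AGO4 lost its call against sgNTC18 and between the lines with shPAX8, and no other member gained or lost one. The 12 markers of other cell types summed to between 0.63 and 1.29 TPM (a level scaled for transcript length that sums to the same total in every library) with sgNTC18 and 1.74 and 3.71 TPM with shPAX8 in 786-M1A cells, and to between 0.60 and 0.81 TPM and 2.59 and 5.96 TPM in OS-LM1 cells. The leukocyte marker CD14, at up to 4.51 TPM, made up most of the higher sums, while CD3E, TTR and INS were listed at 0 in all 24 libraries and PTPRC did not exceed 0.36 TPM. VIM, KRT8 and CDH6, from 11 listed line markers that include PAX8, were expressed in both lines with sgNTC18. CA9, a marker of this carcinoma, was listed at 0 in every 786-M1A sgNTC18 library. NDUFA4L2, also listed, did not exceed 0.52 TPM with sgNTC18 in 786-M1A and 1.16 TPM in OS-LM1. With shPAX8 the CDH6 median went from 50.6 to 6.43 TPM in 786-M1A and from 64.2 to 9.4 TPM in OS-LM1. The KRT8 median went from 249.6 to 57.15 TPM and from 222.8 to 237.4 TPM. The EPAS1 median went from 72.9 to 134.9 TPM in 786-M1A and from 43.7 to 66.9 TPM in OS-LM1. In OS-LM1 cells the NDUFA4L2 median went from 0.83 to 38.9 TPM and the CA9 median from 7.26 to 41.3 TPM. The KRT18 median went from 276.9 to 169.4 TPM in 786-M1A and from 264.0 to 603.4 TPM in OS-LM1. Of 9 line markers tested in 786-M1A, 7 were called lower with shPAX8 and 1 higher, beside 34.7% and 35.7% of all genes. Of 11 tested in OS-LM1, 5 were called lower and 4 higher, beside 37.1% and 36.4% of all genes. With the same shares of all genes beside them, the 8 proliferation markers were all called lower with shPAX8 in OS-LM1 cells. In 786-M1A cells 4 of them were lower and 1 was higher. Their part in the results below was not tested. Nothing in the labels says that replicates came from separate cultures, so the p-values measure the spread between these libraries, which may be technical.

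Levels between genes were compared in TPM, which allows for the length of the transcript model. With sgNTC18 in 786-M1A cells, DROSHA (53.3 ± 4.88 TPM, SD, n = 4) and PRKRA (52.4 ± 4.73 TPM) were highest and within each other's spread. They were followed by XPO5 (32.2 ± 2.53 TPM), TARBP2 (26.0 ± 3.94 TPM), DGCR8 (18.4 ± 2.64 TPM) and AGO2 (14.6 ± 1.42 TPM), and neighbours among these 4 overlapped in their ranges over the libraries. AGO1 (7.18 ± 0.517 TPM) stood between them and DICER1 (5.53 ± 0.618 TPM), AGO4 (4.94 ± 0.400 TPM) and AGO3 (4.12 ± 0.479 TPM), of which neighbours again overlapped. In OS-LM1 cells with sgNTC18, PRKRA (70.5 ± 1.24 TPM) was above all other members. DROSHA (28.4 ± 1.59 TPM) and XPO5 (26.8 ± 2.10 TPM) overlapped below it, followed by TARBP2 (23.1 ± 0.838 TPM) and DGCR8 (14.5 ± 1.30 TPM). DICER1 (8.27 ± 0.385 TPM) was next, and AGO1 (7.39 ± 0.124 TPM), AGO2 (7.30 ± 0.573 TPM) and AGO3 (7.22 ± 0.385 TPM) did not differ beyond their spread, with AGO4 lowest (3.93 ± 0.392 TPM). The transcript models behind these values were short for AGO2 and AGO3, at 3499.6 and 3640.2 bases on average, although the annotation lists 3′ UTRs of up to 11888 and 16755 bases for them. The AGO1 model, at 7478 bases, was also shorter than its longest listed 3′ UTR of 10925 bases. Reads beyond the models would not be counted.

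**Figure D1:**
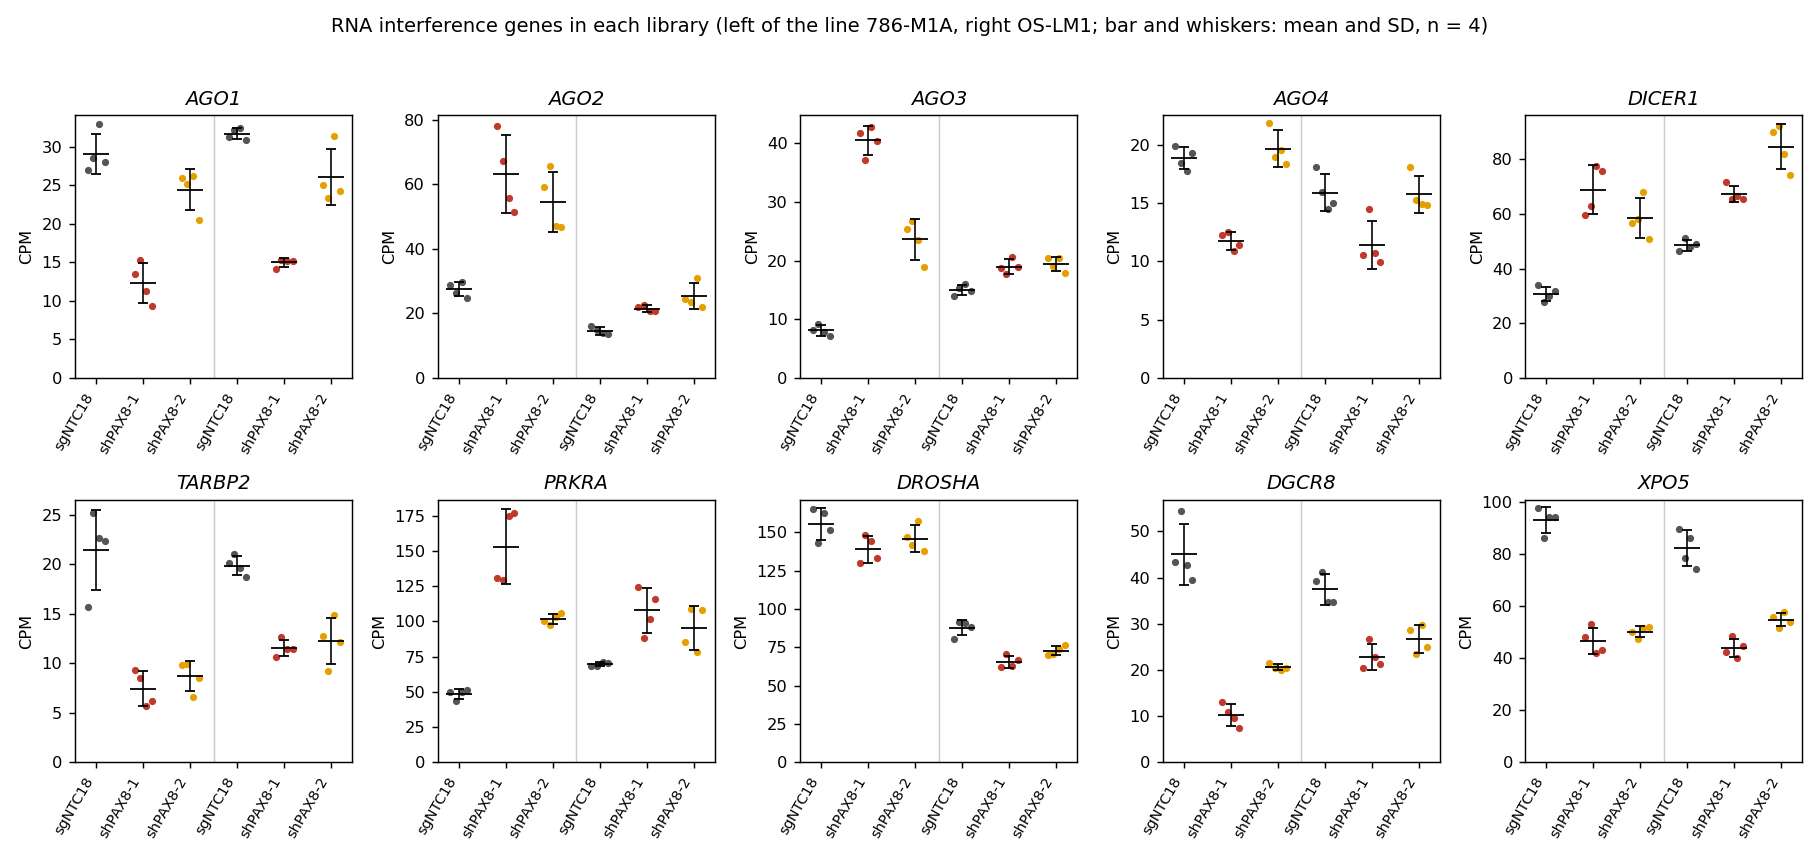
CPM of each of the 10 genes (y axis, from 0) in each library (points) by construct (x axis), with 786-M1A groups left of the grey line and OS-LM1 groups right of it, and the mean with SD of 4 libraries in black. AGO2, AGO3, DICER1 and PRKRA lie higher with both hairpins than with sgNTC18 in both lines, whereas TARBP2, DGCR8 and XPO5 lie lower.

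Between shPAX8 and sgNTC18, 4 members were higher and 5 lower in 786-M1A cells at an edgeR adjusted p under 0.05, and in OS-LM1 cells 4 were higher and 6 lower. The higher genes were AGO2, AGO3, DICER1 and PRKRA in both lines, and AGO1, AGO4, TARBP2, DGCR8 and XPO5 were lower in both. DROSHA passed the test in OS-LM1 cells and did not in 786-M1A cells. With shPAX8-2 alone AGO4 was called in neither line. Without 786-M1A shPAX8-1 replicates 1 and 2, and again without replicates 3 and 4, each of the 9 members called in that line kept its call and direction. In bulk RNA a smaller share of cells with a transcript and less of it in each cell cannot be told apart. Most genes were called in these comparisons. In 786-M1A cells 70.4% of 14452 genes tested were called, 35.7% higher and 34.7% lower, and in OS-LM1 cells 73.4% of 15049 were, 36.4% higher and 37.1% lower, so that 9 or 10 calls among 10 genes were not far above the background. After removal of the GC trend 76.8% and 74.2% of genes were called. A call in the same direction in both lines was made for 41.6% of 13737 genes tested in both and for 9 of the 10 members. The hairpin and guide RNA libraries did not overlap in CPM for 8 members in each line, against 47.3% of all genes in 786-M1A and 52.5% of those compared in OS-LM1 cells. The median log2 fold change of the 10 members was -0.20 in 786-M1A and -0.31 in OS-LM1 cells, beside 0.035 and -0.014 over all genes tested. The sections that follow go through the members by their roles.

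Among the Argonautes, AGO2 and AGO3 rose with the hairpins while AGO1 and AGO4 fell. AGO2, on chromosome 8, encodes the Argonaute best known for slicing. Its values in 786-M1A cells were 28.8, 26.4, 29.8 and 24.9 CPM in the 4 sgNTC18 libraries, 78.2, 67.3, 55.9 and 51.4 CPM with shPAX8-1 and 59.2, 65.6, 47.0 and 46.7 CPM with shPAX8-2. All 8 hairpin libraries were above all 4 guide RNA libraries, and the highest values were those of shPAX8-1 replicates 1 and 2. AGO2 was 2.17-fold higher with shPAX8 (log2 fold change 1.12, standard error 0.13, adjusted p = 2.6e-06). The OS-LM1 values were 16.0, 14.9, 13.8 and 13.6 CPM with sgNTC18, 21.9, 22.7, 20.6 and 20.8 CPM with shPAX8-1 and 24.5, 23.5, 31.1 and 22.0 CPM with shPAX8-2. The groups again did not overlap, and the rise was 1.59-fold (log2 fold change 0.67, standard error 0.10, adjusted p = 4.7e-06). AGO2 has the GC content of a middling gene (46.6% in its longest annotated transcript), and its value moved little when the GC trend of each library was removed, to 1.03 and 0.62.

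AGO3 had the largest rise of any member, in 786-M1A cells. It was 8.17, 9.23, 7.80 and 7.11 CPM with sgNTC18, 41.8, 37.1, 42.7 and 40.4 CPM with shPAX8-1 and 25.3, 26.8, 23.5 and 18.9 CPM with shPAX8-2. Every shPAX8-1 library was above every shPAX8-2 library, which in turn was above every sgNTC18 library. AGO3 was 3.89-fold higher with shPAX8 (log2 fold change 1.96, standard error 0.12, adjusted p = 2.3e-09). The OS-LM1 values were 13.9, 15.3, 16.0 and 14.8 CPM with sgNTC18, 18.7, 17.7, 20.7 and 18.8 CPM with shPAX8-1 and 20.4, 19.1, 20.4 and 17.8 CPM with shPAX8-2. The hairpin libraries were again all higher, by 1.27-fold (log2 fold change 0.34, standard error 0.08, adjusted p = 0.0012). AGO3 is GC-poor (38.9%), and with the GC trend removed the OS-LM1 value was 0.042 (adjusted p = 0.64), whereas the 786-M1A value was 1.69 (adjusted p = 7.6e-09).

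AGO1 fell in both lines, mainly with shPAX8-1. In 786-M1A cells it was 27.0, 28.5, 32.9 and 28.1 CPM with sgNTC18, 13.5, 15.4, 11.3 and 9.39 CPM with shPAX8-1 and 25.9, 25.2, 26.2 and 20.5 CPM with shPAX8-2. The shPAX8-2 libraries lay just under the guide RNA libraries and the shPAX8-1 libraries far under them. The fall with both constructs was 1.65-fold (log2 fold change -0.72, standard error 0.12, adjusted p = 9.3e-05). With shPAX8-1 alone it was 2.32-fold (adjusted p = 3.6e-06), and its log2 fold change was -1.49 without replicates 1 and 2 and -1.02 without replicates 3 and 4. With shPAX8-2 alone the log2 fold change was -0.23 and did not pass the test (adjusted p = 0.18). In OS-LM1 cells AGO1 was 31.2, 32.2, 32.5 and 31.0 CPM with sgNTC18, 14.2, 15.3, 15.2 and 15.2 CPM with shPAX8-1 and 25.1, 23.3, 31.4 and 24.3 CPM with shPAX8-2. One shPAX8-2 library, replicate 3, reached the level of the guide RNA libraries. The fall was 1.61-fold with both constructs (log2 fold change -0.69, standard error 0.08, adjusted p = 3.7e-07), 2.15-fold with shPAX8-1 (adjusted p = 8.5e-09) and 1.21-fold with shPAX8-2 (adjusted p = 0.018).

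AGO4 followed AGO1 at a smaller size. In 786-M1A cells it was 19.9, 18.4, 17.8 and 19.3 CPM with sgNTC18, 12.3, 12.5, 10.9 and 11.4 CPM with shPAX8-1 and 21.9, 18.9, 19.6 and 18.3 CPM with shPAX8-2. Only the shPAX8-1 libraries were below the guide RNA range. The log2 fold change was -0.29 with both constructs (standard error 0.09, adjusted p = 0.011), -0.66 with shPAX8-1 (adjusted p = 6.0e-05) and 0.083 with shPAX8-2 (adjusted p = 0.51). In OS-LM1 cells AGO4 was 18.1, 16.0, 14.5 and 15.0 CPM with sgNTC18, 10.5, 14.5, 10.7 and 9.90 CPM with shPAX8-1 and 18.1, 15.2, 14.9 and 14.8 CPM with shPAX8-2. Its log2 fold change was -0.26 (standard error 0.11, adjusted p = 0.037), with -0.51 for shPAX8-1 (adjusted p = 0.0016) and -0.013 for shPAX8-2 (adjusted p = 0.93). The call with both constructs was lost when any 1 of 7 libraries was left out, namely sgNTC18 replicates 1, 2 and 4, shPAX8-1 replicates 1 and 4, and shPAX8-2 replicates 3 and 4, with values between -0.28 and -0.19. AGO4 was also the only member with fractional expected counts in all 24 libraries, a sign that some of its reads were shared with other sequence, so its level is less certain than that of the others.

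AGO4, AGO1 and AGO3 lie side by side on the plus strand of chromosome 1 (RefSeq positions on GRCh38, chr1:35807636-35857890, chr1:35869761-35930532 and chr1:35930718-36072500). The annotated end of AGO1 and the start of AGO3 are 186 bases apart, and the pair was called in opposite directions in both lines. With the GC trend removed, however, AGO3 was not called in OS-LM1 cells (0.042, adjusted p = 0.64). With shPAX8-2 alone AGO1 was not called in 786-M1A cells (-0.23, adjusted p = 0.18). As a share of the summed TPM of the 4 Argonautes, AGO1 was 23.3% ± 1.59 (SD, n = 4) with sgNTC18, 5.03% ± 0.779 with shPAX8-1 and 11.6% ± 1.22 with shPAX8-2 in 786-M1A cells. AGO3 was 13.4% ± 1.41, 34.7% ± 4.63 and 23.0% ± 1.22 in the same groups, and AGO2 was the largest share in all 3, at 47.3% ± 1.63, 55.1% ± 4.36 and 55.4% ± 2.89. In OS-LM1 cells AGO1, AGO2 and AGO3 held nearly equal shares with sgNTC18, at 28.6% ± 0.832, 28.2% ± 1.57 and 28.0% ± 1.93. AGO2 reached 41.1% ± 1.53 with shPAX8-1 and 39.4% ± 2.29 with shPAX8-2 in that line. The summed TPM was 30.8 ± 1.99 with sgNTC18, 55.9 ± 7.23 with shPAX8-1 and 47.9 ± 6.76 with shPAX8-2 in 786-M1A cells, and 25.8 ± 0.651, 26.7 ± 2.91 and 31.3 ± 3.996 in OS-LM1 cells. These shares depend on the short transcript models of AGO1, AGO2 and AGO3 and are best compared between groups.

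**Figure D2:**
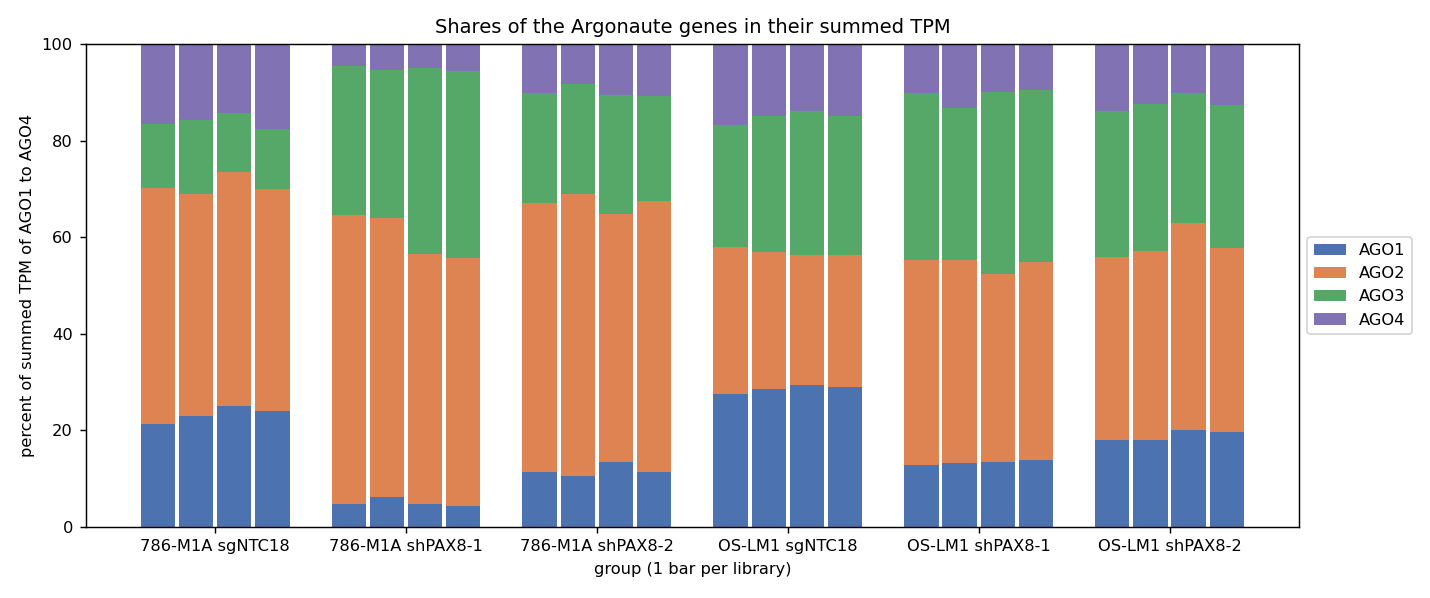
Share of AGO1, AGO2, AGO3 and AGO4 in their summed TPM (y axis, percent), 1 bar per library, grouped by cell line and construct (x axis). The AGO1 share falls from 23.3% with sgNTC18 to 5.03% with shPAX8-1 in 786-M1A cells, while in OS-LM1 cells the AGO2 share is 28.2% with sgNTC18 and 41.1% with shPAX8-1.

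In the DICER1 complex, the nuclease and PRKRA rose and TARBP2 fell. DICER1 (minus strand, chr14:95086228-95158010) was 33.8, 27.8, 29.9 and 31.7 CPM with sgNTC18 in 786-M1A cells, 59.6, 62.8, 77.5 and 75.7 CPM with shPAX8-1 and 56.7, 58.1, 68.1 and 50.7 CPM with shPAX8-2. In OS-LM1 cells it was 46.3, 51.2, 47.9 and 48.8 CPM with sgNTC18, 71.7, 65.5, 66.6 and 65.4 CPM with shPAX8-1 and 90.1, 92.2, 81.9 and 74.1 CPM with shPAX8-2. No hairpin library fell within the guide RNA range in either line. The rise was 2.09-fold in 786-M1A (log2 fold change 1.06, standard error 0.11, adjusted p = 5.6e-07) and 1.54-fold in OS-LM1 (0.62, standard error 0.08, adjusted p = 7.8e-07). With the GC trend removed these values were 0.79 and 0.33, still past the threshold (adjusted p = 2.9e-09 and 1.1e-04). The antisense gene DICER1-AS1 lies at the same locus, and how strand was used in counting is not given in the sources used here.

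PRKRA (minus strand, chr2:178431414-178451175) encodes the double-stranded RNA-binding protein PACT, which partners DICER1 and also activates the kinase PKR. Libraries of 786-M1A cells had 49.9, 43.6, 49.7 and 51.6 CPM of PRKRA with sgNTC18, 131, 129.5, 175 and 177 CPM with shPAX8-1 and 100.4, 97.1, 103 and 106 CPM with shPAX8-2. In OS-LM1 cells it was 68.6, 68.6, 71.0 and 70.7 CPM with sgNTC18, 125, 88.1, 102 and 116 CPM with shPAX8-1 and 85.0, 109, 78.4 and 108 CPM with shPAX8-2. All hairpin libraries were above the guide RNA libraries of their line, and the widest spread was that of 786-M1A shPAX8-1 (SD 26.3 CPM, n = 4). The rise was 2.60-fold in 786-M1A (log2 fold change 1.38, standard error 0.11, adjusted p = 2.5e-08) and 1.44-fold in OS-LM1 (0.53, standard error 0.10, adjusted p = 1.2e-04). PRKRA is GC-poor (39.97%), and without the GC trend the values were 1.11 and 0.25 (adjusted p = 7.4e-12 and 0.012).

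TARBP2 (plus strand, chr12:53500923-53506431), which encodes the partner TRBP that helps DICER1 to bind and hand over its product, had the highest GC content of the members, 61.0%. In 786-M1A cells it was 15.7, 25.2, 22.6 and 22.3 CPM with sgNTC18, 9.31, 8.53, 5.72 and 6.19 CPM with shPAX8-1 and 9.79, 9.87, 6.63 and 8.53 CPM with shPAX8-2. In OS-LM1 cells it was 20.1, 21.0, 19.6 and 18.7 CPM with sgNTC18, 10.6, 12.6, 11.5 and 11.5 CPM with shPAX8-1 and 12.7, 9.19, 14.9 and 12.2 CPM with shPAX8-2. Every hairpin library was lower than every guide RNA library of the line. The fall was 2.61-fold (log2 fold change -1.39, standard error 0.16, adjusted p = 1.4e-06) and 1.68-fold (-0.75, standard error 0.10, adjusted p = 2.0e-06). With the GC trend removed the values were -1.06 in 786-M1A and -0.35 in OS-LM1 cells, both still called (adjusted p = 1.9e-09 and 2.5e-04).

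In the nuclear step DGCR8 and XPO5 fell in both lines, whereas DROSHA moved little in 786-M1A and fell in OS-LM1 cells. DROSHA (minus strand, chr5:31400494-31532093), which makes the first cut in a primary transcript, was 165, 143, 163 and 151 CPM with sgNTC18 in 786-M1A cells, 129.9, 148, 145 and 133 CPM with shPAX8-1 and 147, 142, 158 and 138 CPM with shPAX8-2. The ranges overlapped, and the log2 fold change of -0.11 did not pass the test (standard error 0.08, adjusted p = 0.22). It was -0.22 and passed with the GC trend removed (adjusted p = 0.0023). In OS-LM1 cells DROSHA was 80.7, 91.5, 91.2 and 88.2 CPM with sgNTC18, 62.0, 70.5, 63.1 and 66.9 CPM with shPAX8-1 and 70.1, 70.9, 74.2 and 76.3 CPM with shPAX8-2. There the ranges were apart and DROSHA fell 1.28-fold (log2 fold change -0.36, standard error 0.07, adjusted p = 1.3e-04). With the GC trend removed the OS-LM1 value was -0.43 (adjusted p = 1.3e-06).

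DGCR8 (plus strand, chr22:20080241-20111872) encodes the RNA-binding partner that positions DROSHA on the hairpin. In 786-M1A cells it was 43.4, 54.5, 42.8 and 39.4 CPM with sgNTC18, 13.0, 10.9, 9.57 and 7.35 CPM with shPAX8-1 and 21.4, 20.4, 19.97 and 20.4 CPM with shPAX8-2. The 3 groups were fully apart. This was the largest fall of any member, 3.06-fold with both constructs (log2 fold change -1.61, standard error 0.13, adjusted p = 2.7e-08), 4.33-fold with shPAX8-1 (adjusted p = 1.8e-08) and 2.16-fold with shPAX8-2 (adjusted p = 1.6e-05). In OS-LM1 cells DGCR8 was 39.4, 41.2, 34.8 and 34.6 CPM with sgNTC18, 20.5, 26.8, 22.8 and 21.2 CPM with shPAX8-1 and 28.7, 23.5, 29.7 and 24.9 CPM with shPAX8-2. It fell 1.53-fold there (log2 fold change -0.62, standard error 0.09, adjusted p = 7.5e-06). With the GC trend removed the values were -1.46 and -0.40, past the threshold in both lines (adjusted p = 1.8e-11 and 8.7e-05).

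The DGCR8 locus itself holds hairpins that the DROSHA and DGCR8 complex is known to cut, which give miR-1306 and miR-3618. Their mature sequences from RefSeq (GRCh38) are shown because they lie within the member that fell most, with the seed in capitals.
hsa-miR-1306-5p: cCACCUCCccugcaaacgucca
hsa-miR-1306-3p: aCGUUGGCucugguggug
hsa-miR-3618: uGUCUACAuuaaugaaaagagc
They lie on the plus strand at chr22:20086072-20086093, chr22:20086112-20086129 and chr22:20085797-20085818, and none of the 3 shares a seed with another or with a PAX8 hairpin. Their levels were not measured.

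XPO5 (minus strand, chr6:43522334-43576038) encodes exportin 5, which carries precursor hairpins out of the nucleus. Its values in 786-M1A cells were 97.8, 86.4, 94.2 and 94.3 CPM with sgNTC18, 48.1, 53.3, 42.2 and 43.0 CPM with shPAX8-1 and 49.95, 47.4, 51.8 and 52.1 CPM with shPAX8-2. In OS-LM1 cells it was 89.6, 78.7, 86.3 and 74.4 CPM with sgNTC18, 42.6, 48.6, 40.1 and 44.6 CPM with shPAX8-1 and 56.0, 51.7, 57.9 and 54.1 CPM with shPAX8-2. All hairpin libraries were lower. The fall was 1.90-fold in 786-M1A (log2 fold change -0.92, standard error 0.08, adjusted p = 1.1e-07) and 1.69-fold in OS-LM1 (-0.75, standard error 0.07, adjusted p = 1.8e-08). XPO5 has a GC content of 48.7%, near the middle of the range, and removing the GC trend left -0.95 and -0.73.

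**Figure D3:**
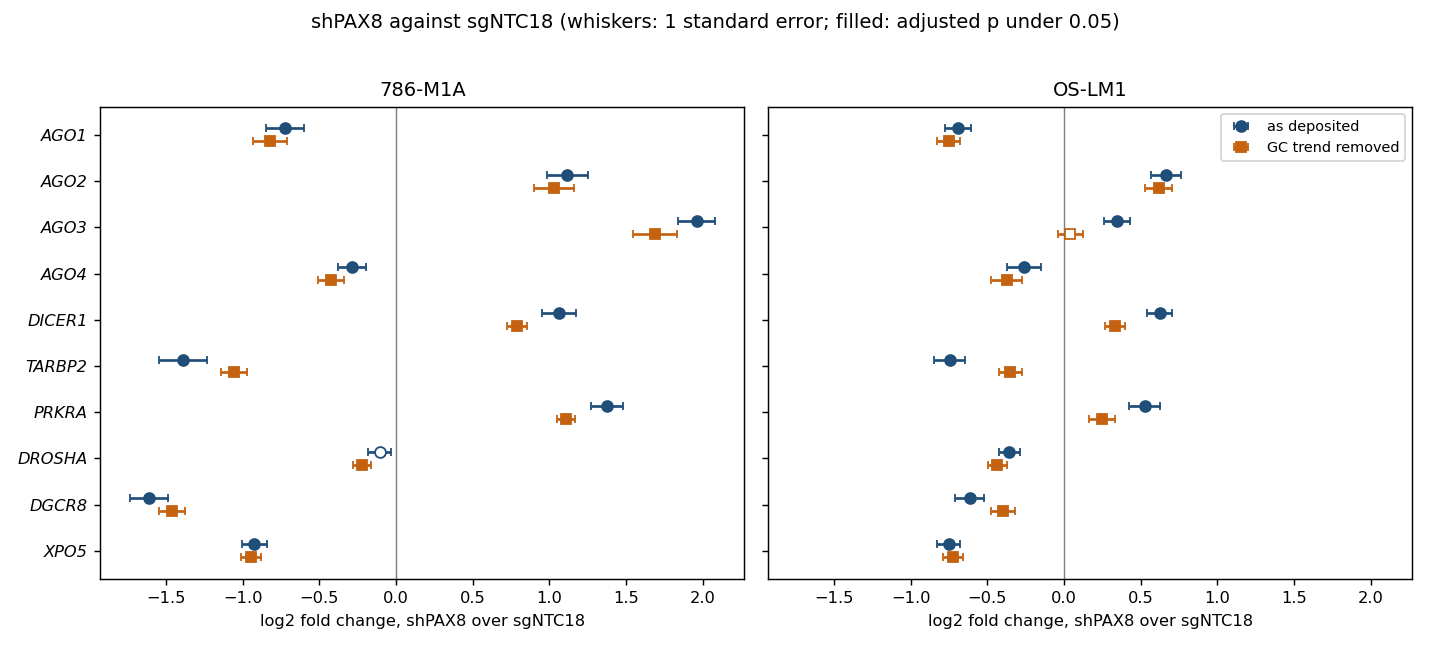
Log2 fold change of each gene between shPAX8 and sgNTC18 (x axis) in 786-M1A and OS-LM1 cells, with 1 standard error as whiskers, as deposited (circles) and after removal of the GC trend in each library (squares); filled symbols passed an adjusted p under 0.05. AGO3 in OS-LM1 cells is the one gene whose symbol changes from filled to open, at 0.042.

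The changes followed GC content across all genes, which are not independent replicates. The rank correlation of the log2 fold change with GC content was -0.253 in 786-M1A and -0.307 in OS-LM1 cells. Genes under 40% GC had a median log2 fold change of 0.34 and 0.40, and genes of 60% or more had -0.43 and -0.54. Of the higher members, AGO3 (38.9%), DICER1 (39.5%) and PRKRA (39.97%) stood at the GC-poor end, while the lower members TARBP2 (61.0%) and DGCR8 (53.6%) stood at the GC-rich end. AGO1 (46.4%), AGO2 (46.6%), AGO4 (45.1%) and DROSHA (45.9%) had nearly the same GC content, and among these AGO2 rose and AGO1 fell in both lines. What sets the trend was not tested.

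**Figure D4:**
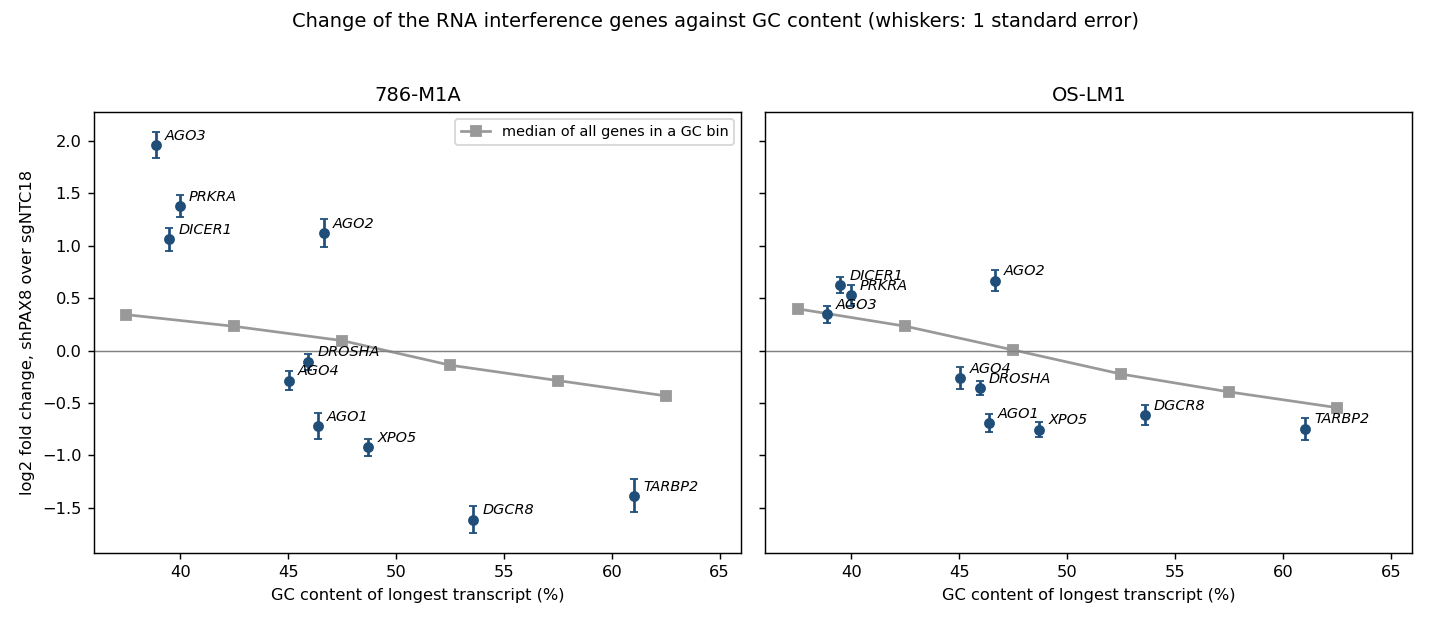
Log2 fold change between shPAX8 and sgNTC18 (y axis, whiskers 1 standard error) against the GC content of the longest annotated transcript (x axis, percent) for the 10 genes (circles), with the median of all genes in 6 GC bins in grey, the first bin holding all genes under 40% and the last all genes of 60% or more. AGO2 and AGO1 differ by less than 1 percentage point in GC content but lie at 1.12 and -0.72 in 786-M1A cells.

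The hairpin against guide RNA difference was not of one size in the 2 lines. For 6 members the difference between the lines passed the test in a fit of all 24 libraries, beside 58.7% of 15665 genes. AGO3 differed most, with a log2 fold change lower by 1.58 in OS-LM1 than in 786-M1A cells (standard error 0.13, adjusted p = 1.4e-10). PRKRA (-0.82, adjusted p = 3.3e-05), DICER1 (-0.41, adjusted p = 0.0075) and AGO2 (-0.42, adjusted p = 0.029) also rose less in OS-LM1 cells. DGCR8 (1.03, adjusted p = 5.6e-06) and TARBP2 (0.67, adjusted p = 0.0049) fell less there. PAX8 itself was reduced less in OS-LM1, by 1.87 on the log2 scale (adjusted p = 7.5e-10), and its part in the differences of the members was not tested. The AGO2 difference lost its call without any 1 of 786-M1A sgNTC18 replicate 2 or 4, 786-M1A shPAX8-2 replicate 2, or OS-LM1 sgNTC18 replicate 1 or 2, with values between -0.41 and -0.37. It was also lost without 786-M1A shPAX8-1 replicates 1 and 2 (-0.33, adjusted p = 0.051). For AGO1 (0.063), AGO4 (0.059), XPO5 (0.20) and DROSHA (-0.22) the difference did not pass (adjusted p = 0.74, 0.75, 0.12 and 0.053). DROSHA passed without 786-M1A shPAX8-1 replicates 1 and 2 (-0.25, adjusted p = 0.029) and without replicates 3 and 4 (-0.26, adjusted p = 0.028).

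Between the lines with sgNTC18, 5 members differed, beside 63.0% of all genes. With the GC trend removed 9 members differed, and TARBP2 was then higher in OS-LM1 cells (0.25 on the log2 scale, adjusted p = 0.013). The 63.0% belongs to the fit without that removal. The share of all genes called after it is not given here, so the larger count is not a result about the members. AGO2 was 1.89-fold lower and DROSHA 1.77-fold lower in OS-LM1 than in 786-M1A cells (adjusted p = 1.3e-06 and 7.7e-10). AGO3 was 1.86-fold, DICER1 1.58-fold and PRKRA 1.43-fold higher (adjusted p = 7.2e-08, 3.9e-06 and 5.3e-04). With shPAX8, 8 members differed, beside 83.1% of all genes, and the order of the lines turned for AGO3 and PRKRA. AGO3 was then 1.61-fold and PRKRA 1.23-fold lower in OS-LM1 cells (adjusted p = 3.3e-09 and 0.0020). DROSHA (2.06-fold lower) and AGO2 (2.52-fold lower) kept their order, and DGCR8 (1.70-fold), TARBP2 (1.48-fold) and DICER1 (1.19-fold) were higher in OS-LM1 cells (adjusted p = 4.9e-08, 1.1e-04 and 0.0026). The DICER1 value was 0.25 on the log2 scale and became -0.048 with the GC trend removed (adjusted p = 0.38). AGO4 had a log2 fold change of -0.19 (adjusted p = 0.040), a call that was lost without any 1 of 9 of the 16 shPAX8 libraries, with values between -0.18 and -0.15. These were 786-M1A shPAX8-1 replicates 1 and 2 and shPAX8-2 replicate 1, and OS-LM1 shPAX8-1 replicates 1, 3 and 4 and shPAX8-2 replicates 2, 3 and 4. Without 786-M1A shPAX8-1 replicates 1 and 2 together AGO4 was not called (-0.16, adjusted p = 0.11) and AGO1 was (0.30, adjusted p = 0.0023).

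Against the same sgNTC18 libraries, which both comparisons share, shPAX8-1 had 4 members higher and 5 lower in 786-M1A cells, beside 36.1% of all genes called higher and 34.5% lower. With shPAX8-2 in that line 4 were higher and 3 lower, beside 31.5% and 30.9%. In OS-LM1 cells shPAX8-1 had 4 higher and 6 lower, beside 35.6% and 35.8%, and shPAX8-2 had 4 higher and 5 lower, beside 34.3% and 34.1%. The 4 higher members were AGO2, AGO3, DICER1 and PRKRA each time. In 786-M1A cells the 9 members called with shPAX8-1 kept their calls without replicates 1 and 2 and without replicates 3 and 4, an alternative chosen after seeing the data. AGO3 was then 2.38 and 2.29 on the log2 scale and DGCR8 -2.40 and -1.91. With all 4 libraries AGO3 was 5.09-fold higher with shPAX8-1 and 2.97-fold higher with shPAX8-2 in 786-M1A cells, and 1.24-fold and 1.30-fold higher in OS-LM1 cells. DICER1 was 2.27-fold and 1.92-fold higher in 786-M1A cells, and 1.36-fold and 1.74-fold higher in OS-LM1 cells.

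The comparison of shPAX8-1 with shPAX8-2 held the hairpin constant in kind and changed its sequence. In 786-M1A cells 2 members were higher and 3 lower with shPAX8-1, beside 24.2% of all genes called higher and 22.9% lower. DGCR8 was 2.01-fold lower with shPAX8-1 (log2 fold change -1.01, standard error 0.16, adjusted p = 2.1e-04), AGO1 1.97-fold lower (-0.98, standard error 0.15, adjusted p = 1.9e-04) and AGO4 1.67-fold lower (-0.74, standard error 0.11, adjusted p = 1.3e-04). AGO3 was 1.72-fold higher (0.78, standard error 0.13, adjusted p = 2.7e-04) and PRKRA 1.51-fold higher (0.59, standard error 0.12, adjusted p = 0.0010). PAX8 was 2.26-fold lower with shPAX8-1 in the same fit (adjusted p = 4.0e-05), so the constructs differed in depletion as well. Over all genes, the fold change in this comparison and GC content had a rank correlation of -0.555. With the GC trend removed AGO1 (-1.05), AGO4 (-0.87) and DGCR8 (-0.78) stayed past the threshold (adjusted p = 9.9e-06, 2.2e-06 and 1.5e-05), and AGO3 (0.41, adjusted p = 0.029) and PRKRA (0.24, adjusted p = 0.0052) did so at smaller values, beside 46.9% of all genes called in either direction after that removal. Without shPAX8-1 replicates 1 and 2 the number of members called was 8, with DICER1, TARBP2 and XPO5 added, and without replicates 3 and 4 it was 6. The shares of all genes above are from the fit of all libraries. Those with a pair left out are not given here, so these counts are not a result about the members.

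In OS-LM1 cells, where PAX8 was at nearly the same level with both constructs (log2 fold change -0.05, adjusted p = 0.80), 4 members were lower with shPAX8-1 and none was higher, beside 16.7% of all genes called lower and 12.4% higher. AGO1 was 1.78-fold lower (log2 fold change -0.83, standard error 0.10, adjusted p = 5.8e-06) and AGO4 1.41-fold lower (-0.50, standard error 0.13, adjusted p = 0.0073), as in 786-M1A cells. DICER1 was 1.28-fold lower (-0.36, standard error 0.09, adjusted p = 0.0051) and XPO5 1.28-fold lower (-0.35, standard error 0.09, adjusted p = 0.0051). In the same line the log2 fold changes of AGO3 (-0.061), PRKRA (0.15), DGCR8 (-0.26) and TARBP2 (-0.12) did not pass (adjusted p = 0.68, 0.36, 0.097 and 0.50). AGO1 and AGO4 were thus called lower with shPAX8-1 in both lines, and each kept its call with the GC trend removed (-0.88 and -0.55 in OS-LM1 cells, where 34.6% of all genes were then called).

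**Figure D5:**
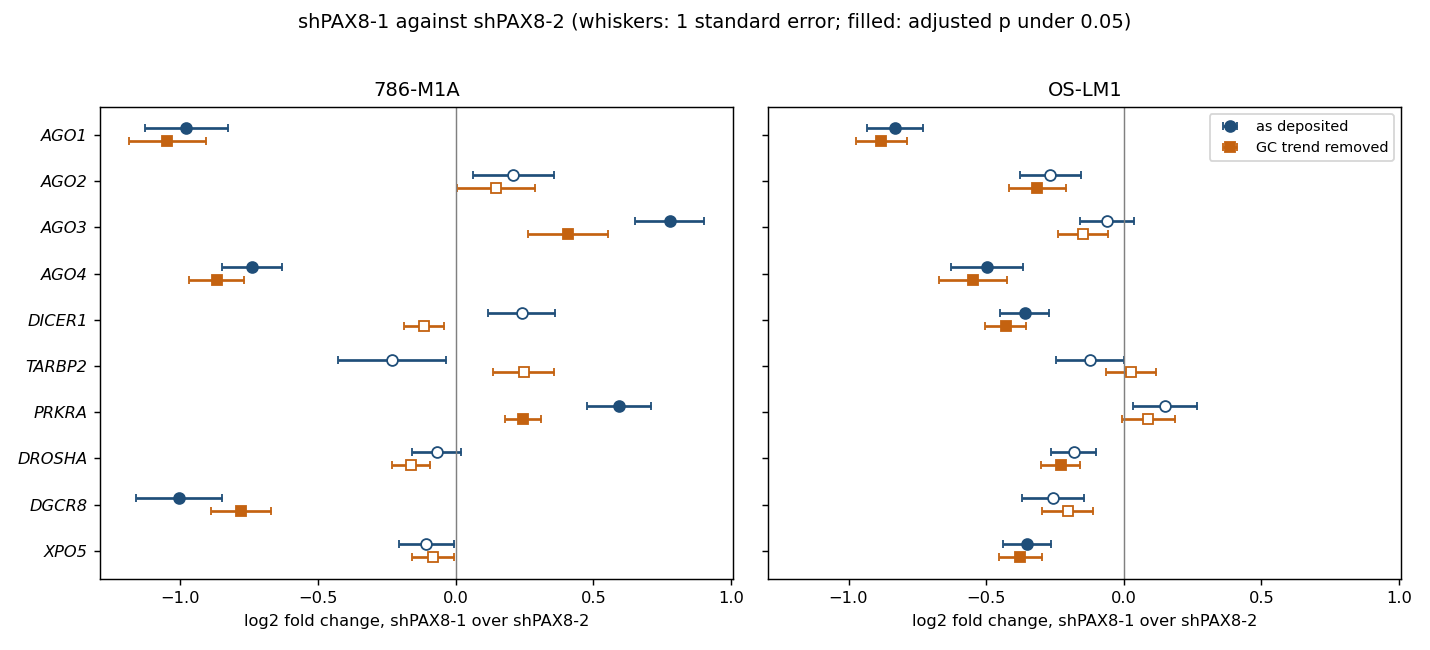
Log2 fold change of each gene between shPAX8-1 and shPAX8-2 (x axis) in 786-M1A and OS-LM1 cells, with 1 standard error as whiskers, as deposited (circles) and after removal of the GC trend in each library (squares); filled symbols passed an adjusted p under 0.05. AGO1 and AGO4 lie below 0 in both lines under both treatments of the counts, whereas AGO3 lies at 0.78 in 786-M1A and at -0.061 in OS-LM1 cells.

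The sequences of the guides allow a plain description of which members hold a match to a seed. The 7-base complement of the shPAX8-1 seed, GACTCAC, occurred on the sense strand of the longest annotated 3′ UTR of AGO1, AGO2 and DICER1, once in each, and in no other member. The complement of the shPAX8-2 seed, CAACTCT, occurred once in AGO1, once in AGO2 and 2 times in AGO3. Of all genes tested in 786-M1A cells with an annotated 3′ UTR, 9.4% held the first and 13.7% the second, and the 3′ UTRs of AGO1, AGO2 and AGO3 are long, at 10925, 11888 and 16755 bases. Across the 1201 genes with GACTCAC the median log2 fold change of shPAX8-1 against shPAX8-2 was -0.15 in 786-M1A cells, beside 0.02 for the 11592 without it, and in OS-LM1 cells the medians were -0.15 and -0.042. In that comparison the 112 genes with at least 2 copies had medians of -0.23 in 786-M1A and -0.14 in OS-LM1 cells. Against sgNTC18, genes with that sequence had medians of -0.064 and -0.054 with shPAX8-1 in 786-M1A and OS-LM1, beside 0.04 and -0.001 without it, but the 112 genes with at least 2 copies had 0.17 and 0.075. Against sgNTC18, genes with CAACTCT, 1759 and 1821 in the 2 lines, were not lower with shPAX8-2 than those without it. Their medians were 0.042 and 0.11, beside -0.004 and -0.002. For shPAX8-1 against shPAX8-2 the medians with CAACTCT were 0.125 in 786-M1A and -0.028 in OS-LM1 cells, beside -0.018 and -0.053 without it. A higher value in that comparison means a lower level with shPAX8-2. AGO4, TARBP2, PRKRA, DROSHA, DGCR8 and XPO5 held neither sequence. A match is a description of the sequence and not a measured target site, and whether matches had a part in any change was not tested.

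The partners of the Argonautes and the enzymes that act on silenced messages were counted from lists of related genes. Of the RISC loading and silencing partners, 8 of 22 tested were higher and 8 lower in 786-M1A cells, and 9 of 23 were higher and 8 lower in OS-LM1 cells. These shares were near those of all genes, which were 35.7% higher and 34.7% lower in 786-M1A and 36.4% and 37.1% in OS-LM1. The same background applies to the lists that follow, all chosen with earlier results of these data known. FKBP5, a co-chaperone of HSP90, was between 36.1 and 41.0 CPM with sgNTC18 and between 11.5 and 12.5 CPM with shPAX8 in 786-M1A cells, and fell by 1.66 and 1.16 on the log2 scale in the 2 lines (edgeR adjusted p = 2.0e-10 and 7.0e-11). FXR1, an RNA-binding protein of the fragile X family, rose 2.78-fold and 1.97-fold (adjusted p = 3.3e-07 and 2.8e-07). TNRC6C, one of the GW182 scaffold proteins that Argonautes recruit, rose 2.72-fold and 1.46-fold (adjusted p = 1.0e-05 and 4.9e-05). MOV10, an RNA helicase found with Argonautes, fell by 1.16 and 0.69 (adjusted p = 1.1e-05 and 3.5e-06).

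Genes of deadenylation and decapping were tested in full. In 786-M1A cells 19 of 32 were higher, beside 35.7% of all genes, and 6 lower, with a median log2 fold change of 0.43, and in OS-LM1 cells 16 were higher and 9 lower, beside 36.4% and 37.1%, with a median of 0.24. Over all genes the medians were 0.035 and -0.014, and the list as such was not tested. CNOT4, a ubiquitin ligase that binds the CCR4-NOT complex, rose 2.03-fold and 2.97-fold (adjusted p = 6.8e-07 and 6.4e-11), and CNOT7, a deadenylase of that complex, 1.76-fold and 1.87-fold (adjusted p = 8.5e-04 and 2.7e-07). DCP1A, a decapping cofactor, rose 2.71-fold and 1.81-fold (adjusted p = 1.3e-08 and 8.7e-09). TOB1, which links deadenylases to messages, rose 2.37-fold and 1.56-fold (adjusted p = 1.6e-08 and 8.8e-07).

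Factors that modify or destroy precursors were called at a rate near that of all genes in each direction. Of 24 tested, 8 were higher and 11 lower in 786-M1A cells, and 8 higher and 10 lower in OS-LM1 cells, beside 35.7% and 34.7% of all genes in the first line and 36.4% and 37.1% in the second. The terminal uridylyltransferase ZCCHC6 (also TUT7) rose 2.75-fold and 2.96-fold (adjusted p = 2.4e-07 and 5.2e-11), and the poly(A) polymerase PAPD4 (also GLD2) 1.96-fold and 2.17-fold (adjusted p = 5.3e-06 and 5.4e-09). KHSRP, which promotes the processing of some hairpins, fell by 1.31 and 0.74 on the log2 scale (adjusted p = 1.7e-09 and 4.3e-08). DIS3L2, a nuclease that degrades uridylated RNA, fell by 1.53 and 0.42 (adjusted p = 2.9e-09 and 0.0040), and its OS-LM1 value was -0.21 with the GC trend removed (adjusted p = 0.068).

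Sensors of double-stranded RNA included the oligoadenylate synthetases OAS1, OAS2 and OAS3, which were called lower with shPAX8 in both lines. In 786-M1A cells 14 of 19 sensors tested were lower with shPAX8 and 4 higher, beside 34.7% and 35.7% of all genes, with a median log2 fold change of -1.21. In OS-LM1 cells 8 were lower and 5 higher, beside 37.1% and 36.4%, with a median of 0.048. The oligoadenylate synthetases make the messenger that activates RNase L. OAS2 was between 249.2 and 321.5 CPM with sgNTC18 in 786-M1A cells, between 0.608 and 0.963 CPM with shPAX8-1 and between 0.108 and 0.267 CPM with shPAX8-2. OAS1 was between 139.5 and 158.7 CPM with sgNTC18 and at most 2.45 CPM with a hairpin, and OAS3 between 375.9 and 449.5 CPM against at most 15.4 CPM. The falls of OAS2, OAS1 and OAS3 were 9.60, 6.76 and 5.10 on the log2 scale (adjusted p by edgeR = 4.0e-16, 7.0e-14 and 2.4e-15). In OS-LM1 cells they had log2 fold changes of -0.67, -0.95 and -1.12 (adjusted p = 1.4e-06, 1.2e-06 and 1.0e-09). OAS2 there was between 31.3 and 41.6 CPM with sgNTC18, between 37.5 and 41.6 CPM with shPAX8-1 and between 12.6 and 14.2 CPM with shPAX8-2, so its call rested on shPAX8-2, and with shPAX8-1 alone its log2 fold change was 0.069 (adjusted p = 0.55). DHX58, the sensor LGP2, fell by 1.94 and 1.18 (adjusted p = 7.5e-09 and 4.1e-07).

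Transcripts that host microRNAs could be read only as host transcripts. Of 26 listed, 20 were in the tables and 12 and 14 were tested. In 786-M1A cells 3 were higher and 5 lower, and in OS-LM1 cells 4 were higher and 5 lower, counts that were not far from the 35.7% and 34.7%, and 36.4% and 37.1%, of all genes. MIR100HG, the host of miR-100, let-7a-2 and miR-125b-1, rose 8.61-fold and 4.51-fold (edgeR adjusted p = 1.7e-08 and 3.8e-08), from between 2.14 and 2.92 CPM with sgNTC18 to between 11.3 and 42.6 CPM with a hairpin in 786-M1A cells. MIR31HG rose 1.87-fold and 2.84-fold (adjusted p = 7.9e-04 and 2.1e-08). On the log2 scale MIR155HG fell by 2.07 in 786-M1A and fell by 2.48 in OS-LM1 (adjusted p = 8.3e-07 and 2.2e-11) and MIR210HG fell by 1.35 and fell by 1.17 in the same order (adjusted p = 1.5e-05 and 4.1e-06). Of the 4 PIWI genes, which act with germline small RNAs, 2 were tested in 786-M1A and both were higher, and 1 was tested in OS-LM1 cells, where it did not pass.

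Over the 24 libraries, with each line centred on its own mean, AGO2, AGO3, DICER1 and PRKRA had correlations of 0.775 to 0.916 with each other in log2 CPM and negative ones with every other member. DGCR8 and PRKRA had the strongest correlation of any pair, -0.979, and DICER1 had 0.869 with AGO3, 0.868 with AGO2 and -0.936 with TARBP2. AGO1 and AGO4 had a correlation of 0.863. These values are a description, since all libraries share the contrast between shPAX8 and sgNTC18 and a GC trend. By the same measure, over 9362 genes, ERN1 (0.965), IRF2BPL (0.964) and MED13L (0.961) were most like AGO2, and PTAR1, SLC33A1 (both 0.973) and SLC17A5 (0.970) most like DICER1. The genes most like DROSHA were E2F8 (0.877), POLD3 (0.875) and KCNS3 (0.874).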

How the data were processed

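The RNA-seq libraries, 4 each with shPAX8-1, shPAX8-2 and sgNTC18 in the lines 786-M1A and OS-LM1, were grouped by the labels. The submitters' processing notes name hg38, Bowtie2 and RSEM. The deposited values used here are expected counts per gene, without normalization, and TPM, which the authors scaled by transcript length. The deposited FPKM values were not used. Versions, annotation release and strand setting are not given in the sources used here. The labels name a KAPA stranded kit and the paper's methods Lexogen kits, so whether coverage is even along transcripts, which TPM assumes, is uncertain. Totals ran from 11634419 to 52059375 expected counts.

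After rounding, expected counts were fitted under R 4.3.3 by edgeR 4.0.16 (filterByExpr, TMM, robust quasi-likelihood test, Benjamini-Hochberg adjustment over all genes tested), 1 fit per line, and 1 fit of all 24 libraries for differences between lines. The effect of shPAX8 is the mean of both constructs minus sgNTC18. CPM use TMM library sizes, and log2 CPM a prior count of 2. Fold changes carry the standard error implied by the F statistic. DESeq2, the tool named in the study, was run in version 1.42.0 as an alternative, as were size factors as in DESeq2, only genes without any count left out, thinning to the smallest total, each library left out, the replicate number as a block, either construct alone, 1 fit of all libraries, both pairs of 786-M1A shPAX8-1 libraries left out, an adjusted p under 0.01, and removal of each library's GC trend (a natural spline with 4 degrees of freedom on the GC content of the longest GENCODE v44 transcript, known for 96.2% of genes tested in 786-M1A and 96.1% in OS-LM1). Leaving either pair of libraries out of shPAX8-1 alone against sgNTC18 was added after seeing the data. The fits were also run on simulated counts with 200 changed genes in each line and no GC trend. Far more genes were called in the data, so that simulation does not show how the fits behave on them.

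The members, lists and alternatives were chosen with earlier results of these data known. Named were all members, PAX8, and from each list up to 4 genes with the largest mean change among those called in the same direction in both lines at an average log2 CPM of at least 2. The genes most like AGO2, DICER1 and DROSHA are the 3 with the highest Pearson correlation among genes with an average log2 CPM of at least 3. Guide sequences came from the study's oligonucleotide table. Replicates were not stated to be paired. Deviations of same-numbered shPAX8-1 and shPAX8-2 libraries correlated at 0.105 to 0.727 in the 4 pairs of 786-M1A cells, and at -0.179 on average in OS-LM1 cells. Between differently numbered libraries of the 2 constructs in 786-M1A cells the correlations ran from -0.814 to 0.74, so the same-numbered values do not establish pairs. With sgNTC18 the mean of same-numbered libraries was -0.125 in OS-LM1 and near 0 in 786-M1A cells. Between the constructs in 786-M1A cells the fit with the replicate number as a block called 5 members, as did the fit without it, whose values are given. Intervals of counting error were not used.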

Additional observations from a re-analysis of the deposited data

Results flagged for a closer look

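Among 66 groups of 4 libraries, 10 members and PAX8 in each of 6 groups, 3 held a value far from the other 3, about as many as the 1 in 20 that chance gives. AGO1 was 14.2 CPM in OS-LM1 shPAX8-1 replicate 1, beside 15.2 to 15.3 in the others, a small gap in a tight group. AGO4 was 18.1 CPM in OS-LM1 shPAX8-2 replicate 1, beside 14.8 to 15.2, and 14.5 CPM in OS-LM1 shPAX8-1 replicate 2, beside 9.90 to 10.7.

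The difference between shPAX8 and sgNTC18 itself differed between the lines for 6 members and for PAX8, by the edgeR test of that difference. In log2 units, with the 786-M1A value subtracted from the OS-LM1 value, it was -1.58 for AGO3, -0.82 for PRKRA, -0.42 for AGO2, -0.41 for DICER1, 0.67 for TARBP2, 1.03 for DGCR8 and 1.87 for PAX8. For each of these 7 genes the smaller change was in OS-LM1 cells.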

How the results depend on the processing

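The number of members called stayed within 1.5 times its value under every setting run, with 2 exceptions. Between shPAX8-1 and shPAX8-2 in 786-M1A cells it was 8 in place of 5 without shPAX8-1 replicates 1 and 2. Between the lines with sgNTC18 it was 9 in place of 5 with the GC trend removed. The cause was not tested, and the shares of all genes called in these settings are not given here. With 1 library left out at a time it ran from 9 to 9 for shPAX8 against sgNTC18 in 786-M1A and from 9 to 10 in OS-LM1 cells, from 5 to 6 and 4 to 5 between the constructs, from 5 to 7 for the difference between lines, and from 5 to 7 and 7 to 8 between the lines with sgNTC18 and shPAX8. For shPAX8 against sgNTC18 it was 9 and 10 with DESeq2, as with edgeR. With the replicate number as a block it was also 9 and 10, and between the constructs 5 and 4. The block gained 2 calls elsewhere, AGO4 between the lines with sgNTC18 (-0.25, adjusted p = 0.044) and AGO1 between the lines with shPAX8 (0.19, adjusted p = 0.046), and changed no other call of a member.

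Some log2 fold changes turned sign, and all but 3 of these had not passed the test. Of the called values, AGO4 in 786-M1A cells was 0.092 with shPAX8-2 alone and OAS2 in OS-LM1 cells 0.069 with shPAX8-1 alone, both against sgNTC18, and DICER1 between the lines with shPAX8 was -0.048 with the GC trend removed. With that trend removed, XPO5 was -0.087 in the same comparison and AGO1 -0.064 between the lines with sgNTC18, where TARBP2 turned from an uncalled negative value to a called 0.25 (adjusted p = 0.013). In the same setting DICER1 was -0.12 and TARBP2 0.25 between the constructs in 786-M1A cells, and PAX8 0.051 and TARBP2 0.026 in OS-LM1 cells. Thinning gave XPO5 between the lines with shPAX8 as -0.018. Without 786-M1A shPAX8-1 replicates 1 and 2, AGO2 between the constructs was -0.035. Without replicates 3 and 4, TARBP2 was 0.027 and XPO5 0.016 there, XPO5 -0.062 between the lines with shPAX8, and AGO1 -0.089 and AGO4 -0.023 in the difference between lines, where shPAX8-2 alone gave -0.062 and -0.12. With 1 library left out, values near 0 crossed it for AGO1 (-0.0030 to 0.13) and AGO4 (-0.0062 to 0.13) in the difference between lines, for PAX8 (-0.14 to 0.087) and TARBP2 (-0.23 to 0.015) between the constructs in OS-LM1 cells, and for XPO5 (-0.026 to 0.058) between the lines with shPAX8. TARBP2, with at least 80 expected counts in a library, was among the members with the fewest reads, and the 4 libraries a group limit the spread that can be estimated. No control hairpin was analysed here, so a change that any hairpin would bring and one tied to PAX8 cannot be told apart.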
